A study of Mus musculus with 2 samples.

Results

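Type I interferon-stimulated genes are the antiviral and regulatory genes that cells switch on when the type I interferon receptor signals. A list of 34 mouse gene symbols of this kind was followed in droplet single-cell RNA-seq of liver tumours, and 32 of them were among the 32285 genes of the deposited count tables. The other two, the Mx GTPase genes Mx1 and Mx2, were not analysed here. The genes were listed by symbol, and the list was made with earlier results of these data known. They cover RNA-binding IFIT proteins, OAS enzymes, membrane restriction factors, the ISG15 modifier system, transcription factors, nucleic acid enzymes and sensors, Schlafen genes and other effectors.

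The cells were CD45+ leukocytes sorted from orthotopic liver tumours of C57BL/6 mice. All mice were kept on the MCD diet, which lacks methionine and choline and causes fatty liver, and carried luciferase-labelled RIL-175 cells, a mouse hepatocellular carcinoma line. One group was fed 5000000000 colony-forming units of Akkermansia muciniphila, a gut bacterium (AKK library), and the other was given PBS (PBS library), from 2 weeks before the 2 weeks of diet that preceded implantation, with a pause of 6 days after surgery. There was 1 library per group, so no difference below has a replicate check or a test, and the labels do not say how many mice each library pools. Ranges in parentheses are 95% intervals for counting error alone.

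The PBS library held 4646 cells after filtering (59690216 unique molecular identifiers, UMIs; median 6736 per cell) and the AKK library 6177 (68042641 UMIs; median 6369). In the deposited tables, 8 cell barcodes occurred in both libraries. Cells were clustered without the 32 genes and without the other interferon genes named below, and 43 clusters were given class names from fixed marker genes, so that a class does not rest on the genes described. Of these, 2 clusters of very shallow cells (157 PBS and 22 AKK cells) stayed unnamed. A class name ending in "-like" means that the cluster carried the markers of that cell type: C1qa stood at 1498 CPM in PBS and 1202 in AKK macrophage-like cells against 29.98 and 17.9 in all other cells. CPM here are a gene's UMIs scaled to the UMI total of its class and library. A tumour- or epithelial-like class led by Krt8 and Cdh13 was present although the sort was for CD45+ cells.

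Type I interferons signal through the receptor IFNAR and the kinases JAK1 and TYK2 to a transcription factor complex that includes STAT2 and IRF9 and binds the interferon-stimulated response element (ISRE) in promoters. Many of the induced genes can also be switched on by IRF3 or IRF7 directly, and some by interferon-gamma, which acts at GAS elements. In tumours and virus-infected tissue, macrophages, dendritic cells and plasmacytoid dendritic cells (pDC) are known sources of type I interferon.

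The RefSeq promoter table (GRCm38.p6, 250 bases before to 50 after a gene's start) held 31 promoters for 25 of the 32 genes. The ISRE core, GAAA and again GAAA with any 2 bases between them, was searched on both strands and found in 14 of these 31 promoters (45.2%), against 3.44% of all 32851 promoters of the same length. The GAS letters TTCNNNGAA were found in 8 of the 31 (25.8%), against 8.30% of all; they can overlap the ISRE core. The promoters of 5 genes are printed from 250 bases before the start to the last base before it, 5′ to 3′ on the gene's strand, with the ISRE core in capitals. They are shown as examples: Isg15 and the 4 IFIT genes had ratios above 1 in neutrophil-like and below 1 in macrophage-like cells. This contrast was not particular to them. All 31 genes measured in neutrophil-like cells were above 1 there, and 19 of 32 were below 1 in macrophage-like cells. Parp14, Rtp4 and Ifi204, which had no promoter in the table, shared the contrast, as did Herc6 and Cmpk2, whose windows held no ISRE core.
Isg15, chr4:156200819-156201068, minus strand: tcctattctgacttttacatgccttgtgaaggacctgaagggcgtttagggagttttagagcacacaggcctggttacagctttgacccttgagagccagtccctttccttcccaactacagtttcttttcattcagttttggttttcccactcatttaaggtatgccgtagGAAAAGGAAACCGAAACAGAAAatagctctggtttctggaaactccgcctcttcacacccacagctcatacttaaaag
Ifit1, chr19:34640639-34640888, plus strand: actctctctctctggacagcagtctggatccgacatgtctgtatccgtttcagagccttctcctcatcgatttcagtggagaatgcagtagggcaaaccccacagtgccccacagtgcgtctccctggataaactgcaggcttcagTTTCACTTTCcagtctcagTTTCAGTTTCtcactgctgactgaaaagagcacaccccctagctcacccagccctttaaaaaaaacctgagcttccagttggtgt
Ifit2, chr19:34550444-34550693, plus strand: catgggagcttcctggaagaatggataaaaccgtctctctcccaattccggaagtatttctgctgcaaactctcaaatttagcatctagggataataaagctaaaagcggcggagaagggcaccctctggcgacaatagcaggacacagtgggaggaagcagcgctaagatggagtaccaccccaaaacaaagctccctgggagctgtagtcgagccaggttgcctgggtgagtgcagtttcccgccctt
Ifit3, chr19:34583279-34583528, plus strand: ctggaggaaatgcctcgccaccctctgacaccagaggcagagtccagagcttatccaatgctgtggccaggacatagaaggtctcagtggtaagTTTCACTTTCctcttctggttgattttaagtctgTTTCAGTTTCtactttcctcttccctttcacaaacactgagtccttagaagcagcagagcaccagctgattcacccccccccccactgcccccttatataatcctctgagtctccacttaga
Ifit3b, chr19:34607707-34607956, plus strand: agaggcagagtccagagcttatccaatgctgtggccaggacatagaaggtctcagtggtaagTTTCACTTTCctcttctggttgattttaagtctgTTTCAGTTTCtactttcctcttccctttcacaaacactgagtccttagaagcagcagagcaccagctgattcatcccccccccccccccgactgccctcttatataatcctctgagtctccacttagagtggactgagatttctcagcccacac
In Isg15 the 3 overlapping matches began 78, 72 and 66 bases before the start and form 1 block. Ifit1 held 2 matches on the opposite strand, and Ifit3 and Ifit3b held 2 each. Ifit3 and Ifit3b are near copies that lie side by side on chromosome 19, and their promoters share an unbroken run of 169 bases, so the letters are the same and only their distance to the annotated start differs. Neither window of Ifit2 held an ISRE core, and the printed one held 1 GAS match; the window of Samhd1 likewise held no ISRE core and 1 GAS match.

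The summed level of the 32 genes was highest in monocyte-like cells and lowest in tumour- or epithelial-like cells, in both libraries. It was 4314 CPM in PBS and 6275 CPM in AKK monocyte-like cells, a ratio (AKK over PBS throughout) of 1.45 (1.43 to 1.48). In neutrophil-like cells, the largest class with 2088 PBS and 2559 AKK cells, it was 3081 and 4497 CPM, a ratio of 1.46 (1.44 to 1.48). In macrophage-like cells (542 and 508 cells) the libraries stood close together at 3018 and 3144 CPM, a ratio of 1.04 (1.02 to 1.06). The sum in macrophage-like cells depended on the setting: the ratio was 0.970 when libraries were scaled by the median ratio of all genes and 1.27 when no doublets were removed.

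Among dendritic cells, the ratio was 1.34 (1.28 to 1.41) in type 1 conventional dendritic cell-like cells (cDC1; 39 and 55 cells) and 1.33 (1.29 to 1.38) in cDC2-like cells, while pDC-like cells stood at 3103 and 3012 CPM, a ratio of 0.971 (0.920 to 1.03). Lymphoid classes were low: 997 and 1385 CPM in B cell-like cells (1.39, 1.305 to 1.48), 880 and 989 CPM in natural killer (NK) or ILC1-like cells (1.12, 1.07 to 1.18) and 1528 and 1562 CPM in T cell-like cells (1.02, 0.993 to 1.05). Over all kept cells the ratio was 1.18 (1.17 to 1.18), a value that also reflects the cell mix: 44.9% of PBS and 41.4% of AKK cells were neutrophil-like, and 9.73% and 14.2% were T cell-like. Single genes made up a large part of some sums, with Samhd1 at 26.8% of the PBS and 29.1% of the AKK sum in neutrophil-like cells and Ifitm3 at 48.9% and 29.95% in cDC1-like cells. In NK or ILC1-like cells the most abundant gene, Ifi203, made up 14.98% and 14.6%. Without Ifitm3 the cDC1 ratio was 1.84.

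**Figure D1:**
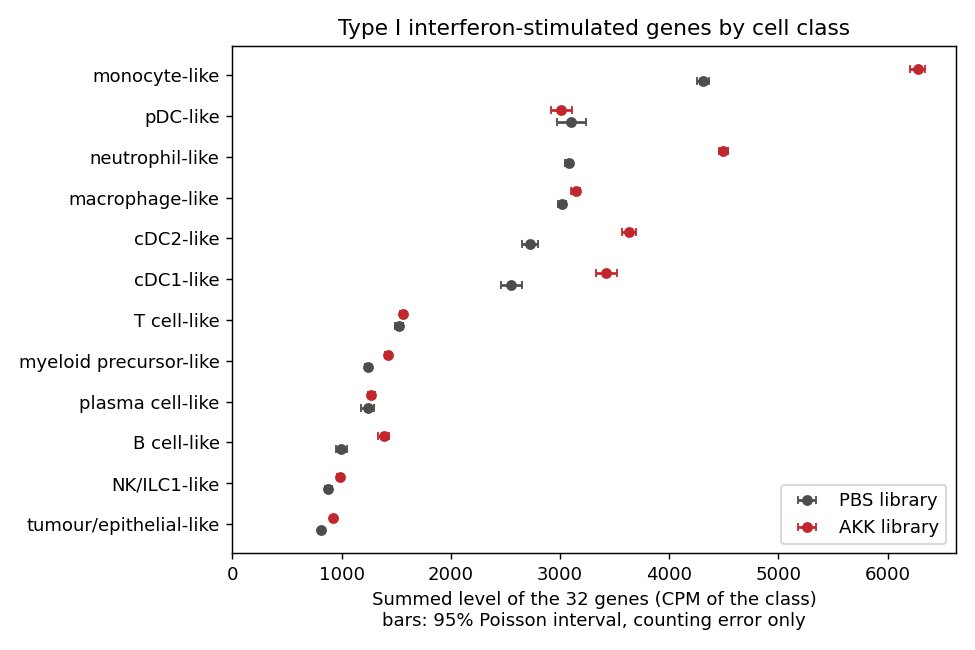
Summed level of the 32 genes (x axis, CPM of the class) in 12 cell classes (y axis) for the PBS library (grey) and the AKK library (red), with 95% Poisson intervals. The AKK point lies clearly to the right in monocyte-like, neutrophil-like and both conventional dendritic cell-like classes, and the points nearly meet in macrophage-like, T cell-like and pDC-like cells.

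Counted gene by gene, neutrophil-like cells stood out by their uniformity. All 31 genes with at least 20 UMIs had a ratio above 1, 16 were at least 1.5-fold higher and 0 at least 1.5-fold lower, with a median log2 ratio of 0.60. Of all 12741 genes measured in that class, 10.8% were at least 1.5-fold higher and 6.84% at least 1.5-fold lower, with a median log2 ratio of 0.07. In monocyte-like cells 11 of 31 were higher and 1 lower by that fold (14.2% and 11.7% of all genes), with a median of 0.36. In macrophage-like cells the count leaned the other way: 1 of 32 was higher and 6 were lower (9.95% and 9.79% of all genes), with a median of -0.13 against 0.10 over all genes. B cell-like cells had 8 of 22 higher and 0 lower (10.6% and 6.92% of all genes).

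The remaining classes were mixed. NK or ILC1-like cells had 7 of 31 higher and 6 lower (7.70% and 10.2% of all genes), T cell-like cells 2 and 2 of 31 (6.43% and 9.94%), myeloid precursor-like cells 6 and 4 of 30 (12.6% and 7.77%) and tumour- or epithelial-like cells 2 and 5 of 31 (9.90% and 6.01%). In T cell-like cells both shares were at or below the background. Over all kept cells 3 of 32 were higher and 0 lower (8.49% and 10.9%).

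**Figure D2:**
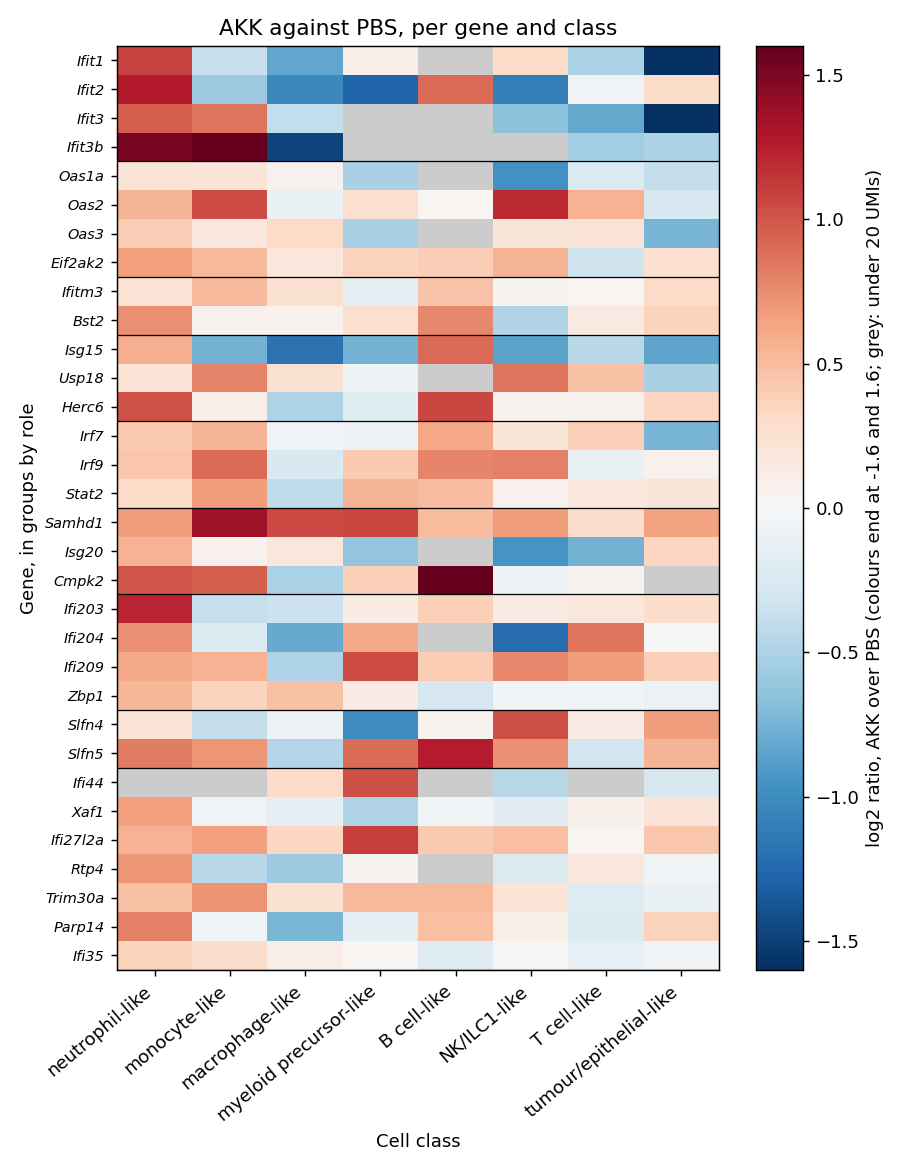
Log2 ratio of AKK over PBS for each of the 32 genes (rows, grouped by role) in 8 cell classes (columns); red is higher in the AKK library, blue lower, and grey marks genes under 20 UMIs in the class. The neutrophil-like column is red for all 31 genes measured there, with Ifi44 grey, the IFIT and Isg15 rows are blue in macrophage-like cells, and the Samhd1 row is red in all 8 classes.

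IFIT proteins bind viral RNA and block its translation, and their 4 genes lie within 1 stretch of chromosome 19, from 34550694 (Ifit2) to 34650009 (Ifit1) in GENCODE M21 on GRCm38. They showed the sharpest split between classes. In neutrophil-like cells all 4 were higher in the AKK library: Ifit1 stood at 42.6 CPM in PBS and 90.03 in AKK (ratio 2.11, 1.90 to 2.35). Ifit2 was at 9.23 and 22.2 CPM there (2.41, 1.92 to 3.03), Ifit3 at 15.4 and 30.1 (1.95, 1.63 to 2.35) and Ifit3b at 6.04 and 17.3 (2.86, 2.18 to 3.80). An Ifit1 UMI was found in a minority of neutrophil-like cells, 163 of 2088 in PBS and 312 of 2559 in AKK. No single cell carried the sum: the richest held 26 of 508 PBS and 33 of 1066 AKK UMIs.

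In macrophage-like cells 3 of the 4 were at least 1.5-fold lower in the AKK library, against 9.79% of all genes. Ifit2 stood at 61.4 CPM in PBS and 29.9 in AKK (0.487, 0.415 to 0.570), and Ifit1 at 32.2 and 18.1 (0.563, 0.456 to 0.692). A single AKK cell held 46 of the 132 Ifit1 UMIs there; without the richest cell of each library the ratio was 0.4002 (0.311 to 0.511). Ifit3b rested on 19 and 5 UMIs (0.357, 0.104 to 0.988), and Ifit3 stood at 10.8 and 8.23 CPM (0.761, 0.545 to 1.05). Summed over the 4 genes, the level was 73.4 and 160 CPM in neutrophil-like cells (2.18, 2.01 to 2.36) and 106 and 56.9 CPM in macrophage-like cells (0.536, 0.477 to 0.601). The order of the classes was therefore reversed between the libraries: macrophage-like cells had the higher sum in PBS and neutrophil-like cells in AKK.

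Monocyte-like cells gave no single direction for the IFIT genes. Ifit2 was at 33.4 and 22.3 CPM (0.667, 0.522 to 0.850), and Ifit3 at 7.53 and 13.7 (1.82, 1.22 to 2.74). The highest ratio of any gene in that class, 4.55 for Ifit3b (1.66 to 15.5), came from 5 and 20 UMIs, 18 of the 20 in 1 cell, and was 1.15 without the richest cells. In tumour- or epithelial-like cells Ifit1 was at 18.7 and 5.56 CPM (0.297, 0.214 to 0.406), but 127 of its 211 PBS UMIs came from 1 cell, and the ratio without the richest cells was 0.538 (0.354 to 0.804). Ifit3 and Ifit3b reads can be confused in part, since 6.57% of 90-base windows in the last 500 bases of Ifit3 transcripts also occur in Ifit3b.

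ISG15 is a ubiquitin-like protein that is attached to other proteins, HERC6 is the mouse ligase for it and USP18 removes it and dampens receptor signalling. Isg15 lies at 156199424 to 156200818 on chromosome 4, minus strand. It stood at 228 CPM in PBS and 101 in AKK macrophage-like cells (0.441, 0.405 to 0.479) and at 126 and 74.5 in monocyte-like cells (0.591, 0.520 to 0.672). In neutrophil-like cells it was at 155 and 231 CPM (1.49, 1.40 to 1.58). Macrophage-like cells had the highest Isg15 level of the 12 classes in the PBS library, and neutrophil-like cells had it in the AKK library. With every cell thinned to 2000 UMIs, the share of macrophage-like cells with an Isg15 UMI was 30.7% (26.7 to 34.9) in PBS and 11.9% (9.12 to 15.1) in AKK, and 67.7% and 42.5% without thinning.

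For comparison, the thinned share of T cell-like cells with an Isg15 UMI was 3.47% in PBS and 2.8% in AKK. Herc6 followed Isg15 only in part: it was at 29.5 and 59.5 CPM in neutrophil-like cells (2.02, 1.78 to 2.30), 48.9 and 34.8 in macrophage-like cells (0.712, 0.609 to 0.830) and 40.4 and 43.1 in monocyte-like cells (1.07, 0.881 to 1.29). Usp18 had ratios of 1.17 (0.979 to 1.40) in neutrophil-like, 1.73 (1.26 to 2.40) in monocyte-like and 1.19 (0.925 to 1.52) in macrophage-like cells.

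Samhd1 encodes a hydrolase that depletes deoxynucleotides and so restricts viruses (chromosome 2, 157097533 to 157135265, minus strand). It was the one gene of the 32 that was at least 1.5-fold higher in 6 of the 8 classes, and its ratio was above 1 in all 12 classes with a level given. It stood at 589 CPM in PBS and 1508 in AKK monocyte-like cells (2.56, 2.46 to 2.67), at 278 and 576 in macrophage-like cells (2.08, 1.98 to 2.18) and at 826 and 1309 in neutrophil-like cells (1.58, 1.54 to 1.63). The lowest ratio among the 8 was in T cell-like cells, with 210 and 255 CPM (1.21, 1.12 to 1.31). In macrophage-like cells thinned to 2000 UMIs, 37.5% (33.3 to 41.9) of PBS and 53.8% (49.2 to 58.3) of AKK cells held a Samhd1 UMI. Ifi27l2a, a small mitochondrial protein gene, was the other gene with a ratio above 1 in all 8 classes, from 1.02 (0.960 to 1.08) in T cell-like to 2.15 (1.86 to 2.51) in myeloid precursor-like cells. Outside these 8, its level was lower in AKK plasma cell-like (444 and 283 CPM) and pDC-like cells (368 and 324 CPM). It was higher in both conventional dendritic cell-like classes.

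The other nucleotide and nucleic acid enzymes varied more. The mitochondrial nucleotide kinase gene Cmpk2 was at 24.3 and 49.0 CPM in neutrophil-like cells (2.01, 1.74 to 2.33) and 12.6 and 24.3 in monocyte-like cells (1.94, 1.43 to 2.64). In macrophage-like cells it was at 9.91 and 6.997 CPM (0.706, 0.493 to 1.0002), and in B cell-like cells its ratio of 4.77 (1.44 to 24.8) rested on 3 PBS and 23 AKK UMIs. The exonuclease gene Isg20 was at 60.1 and 88.2 CPM in neutrophil-like cells (1.47, 1.33 to 1.62) and at 36.0 and 21.3 in T cell-like cells (0.592, 0.477 to 0.735).

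OAS enzymes sense double-stranded RNA and activate RNase L, and PKR, encoded by Eif2ak2, stops translation on the same signal. Their ratios in neutrophil-like cells ran from 1.16 (Oas1a) to 1.58 (Eif2ak2), and the sum over the 4 genes was 138 and 188 CPM (1.37, 1.28 to 1.46). In monocyte-like cells the sum had the same ratio of 1.37 (1.25 to 1.503), and Oas2 was highest with 24.2 and 50.03 CPM (2.07, 1.67 to 2.57). In macrophage-like cells none of the 4 passed 1.5-fold, and the sum stood at 99.8 and 109 CPM (1.09, 0.995 to 1.20). Oas1a is uncertain as a single gene, since 42.3% of its 90-base windows near the transcript end also occur in Oas1g.

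Among membrane restriction factors, Ifitm3, which blocks viral fusion in endosomes, was the most abundant of the 32 genes in monocyte-like cells at 1174 and 1686 CPM (1.44, 1.39 to 1.48). It was at 1248 and 1025 CPM in cDC1-like cells (0.821, 0.762 to 0.884), the reverse direction. Bst2, which encodes tetherin and marks mouse pDC, was highest in pDC-like cells in both libraries, at 1129 and 1197 CPM (1.06, 0.970 to 1.16). It was lowest in neutrophil-like cells, at 10.6 and 17.6 CPM (1.66, 1.32 to 2.09).

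Of the transcription factors of the response, Irf7, Irf9 and Stat2, 2 of 3 were at least 1.5-fold higher in monocyte-like cells, against 14.2% of all genes. Their sum was 138 and 221 CPM (1.601, 1.46 to 1.76). In neutrophil-like cells 0 of 3 passed that fold, and the sum was 135 and 178 CPM (1.31, 1.23 to 1.40). In macrophage-like cells 0 of 3 passed it, and the sum was 163 and 138 CPM (0.850, 0.785 to 0.920). Irf9 in PBS macrophage-like cells depended on 1 cell with 108 of 390 UMIs: its ratio was 0.842 (0.714 to 0.991) with that cell and 1.13 (0.942 to 1.34) without the richest cells. Irf9 also overlaps Rnf31 on the same strand, so reads may be shared. Stat2 was highest in pDC-like cells, at 302 and 279 CPM (0.925, 0.774 to 1.11). Irf7, which drives interferon production in pDC, was at 87.5 and 75.4 CPM there (0.862, 0.615 to 1.22).

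The PYHIN genes Ifi203, Ifi204 and Ifi209 encode DNA-binding proteins, and Zbp1 senses Z-form nucleic acid. Ifi204 was lower in AKK macrophage-like cells, at 232 and 133 CPM (0.574, 0.532 to 0.619), and higher in neutrophil-like cells, at 119 and 198 (1.66, 1.56 to 1.78). Ifi203 was highest in monocyte-like cells, at 323 and 251 CPM (0.777, 0.722 to 0.836), and lowest of 12 classes in neutrophil-like cells, at 6.04 and 14.0 CPM (2.32, 1.75 to 3.10). RNA from other cells could give 7.27 and 7.56 CPM there by the marker bound described below, so the PBS level is not above that bound. Zbp1 had the same direction in the 3 large myeloid classes: ratios of 1.45 in neutrophil-like, 1.28 in monocyte-like and 1.38 in macrophage-like cells. Ifi209 is uncertain as a single gene, since 58.6% of its end windows also occur in Ifi214, and Ifi203 overlaps Mndal on the same strand.

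The Schlafen genes lie together on chromosome 11. Slfn4 was mainly a neutrophil-like transcript, at 318 and 372 CPM (1.17, 1.12 to 1.22), against 58.5 and 44.7 in monocyte-like cells (0.765, 0.642 to 0.911). Slfn5 was at 75.9 and 134 CPM in neutrophil-like (1.77, 1.63 to 1.92) and 141 and 230 in monocyte-like cells (1.63, 1.49 to 1.79), and at 71.5 and 51.7 in macrophage-like cells (0.723, 0.637 to 0.821). Of the other effectors, the ADP-ribosyltransferase gene Parp14 was at 53.6 and 93.7 CPM in neutrophil-like cells (1.75, 1.58 to 1.93) and at 133 and 80.3 in macrophage-like cells (0.604, 0.547 to 0.666). Rtp4 was at 73.4 and 120 CPM in neutrophil-like cells (1.63, 1.499 to 1.78) and 36.6 and 24.4 in macrophage-like cells (0.667, 0.554 to 0.8004). Ifi44, with under 20 UMIs in neutrophil-like and monocyte-like cells, was highest in pDC-like cells at 85.9 and 84.2 CPM (0.979, 0.702 to 1.38).

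Within the classes, the clusters differed. The cluster values below come from the main clustering only and were not computed for the alternatives. With interferon genes in the clustering, neutrophil-like cells had a separate cluster led by Ifit1 and Gbp2 (135 PBS and 509 AKK cells). The Cxcl3 cluster then held 413 and 188 cells. The neutrophil-like cluster led by Cxcl3, Cstdc4 and Fpr1 (490 and 452 cells) had the highest ratio of the 5 neutrophil-like clusters with at least 30 cells in each library. Its sum was 3739 CPM in PBS and 7166 in AKK (1.92, 1.87 to 1.97), and 28 of 31 genes were at least 1.5-fold higher and 0 lower (9.66% and 15.8% of all 7859 genes measured in that cluster), with a median log2 ratio of 1.17 against -0.08 over all genes. Ifit2 stood there at 7.18 and 53.2 CPM (7.42, 4.46 to 13.03; 5 and 34 cells with a UMI), Ifit1 at 75.8 and 222 (2.93, 2.46 to 3.50) and Isg15 at 240 and 539 (2.25, 2.03 to 2.49). The clusters led by Csf3r and by Gm2396 had sums with ratios of 1.44 (1.41 to 1.47) and 1.37 (1.32 to 1.41). The cluster led by Ltf, Ngp and Camp, genes of immature neutrophils, was at 1.19 (1.14 to 1.24), and the cluster led by the heat-shock genes Hspa1b and Hspa1a at 1.03 (0.983 to 1.08), with 8 genes higher and 3 lower of 30, shares near those of all genes measured there (25.2% and 11.6%).

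Macrophage-like cells were split in direction in the main clustering. With stricter cell filters, separate clusters were led by Mmp13 (123 PBS and 49 AKK cells), by Arg1 and Hspa1b (78 and 56) and by Arg1 and Hmox1 (15 and 75). In the cluster led by Arg1 and Mmp13 (363 and 265 cells), the sum was 2906 CPM in PBS and 2035 in AKK (0.700, 0.681 to 0.720). There 21 of 31 genes were at least 1.5-fold lower and 0 higher (10.2% and 12.4% of all 11820 genes measured in that cluster), with a median log2 ratio of -0.87 against 0.10 over all genes. Isg15 stood at 232 and 47.2 CPM (0.204, 0.172 to 0.240), with a UMI in 241 of 363 and 67 of 265 cells. Ifit1 was at 36.6 and 6.83 CPM (0.187, 0.116 to 0.286) and Ifit2 at 69.9 and 12.8 (0.183, 0.131 to 0.2498). Ifitm3 (1.06, 1.002 to 1.11) and Samhd1 (1.21, 1.12 to 1.31) were the exceptions above 1. These cells were also shallower in the AKK library, with a median of 10180 UMIs against 17415, and had a lower median mitochondrial share (1.63% against 2.53%); the part of either in the ratios was not tested.

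The other macrophage-like clusters of that size went the other way. The sum had a ratio of 1.25 (1.20 to 1.31) in the cluster led by Spon1, Ifih1 and Ifi205 (66 and 63 cells), 1.47 (1.40 to 1.55) in the cluster led by Dcstamp and Mmp12 (51 and 61 cells) and 1.70 (1.59 to 1.82) in the cluster led by Cxcl9 (33 and 70 cells). Isg15 had ratios of 0.927 (0.768 to 1.12), 0.549 (0.447 to 0.671) and 1.28 (0.905 to 1.84) in these, and Samhd1 of 2.28, 2.04 and 3.27. The class sum near 1 is the total over a large cluster below 1, 3 small ones above it and smaller clusters. Among T cell-like cells, the 5 clusters had ratios of 0.902, 0.908, 0.956, 0.972 and 1.18, against 1.02 for the class. The intervals were wholly below 1 for the lowest 2 and wholly above 1 for the highest.

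**Figure D3:**
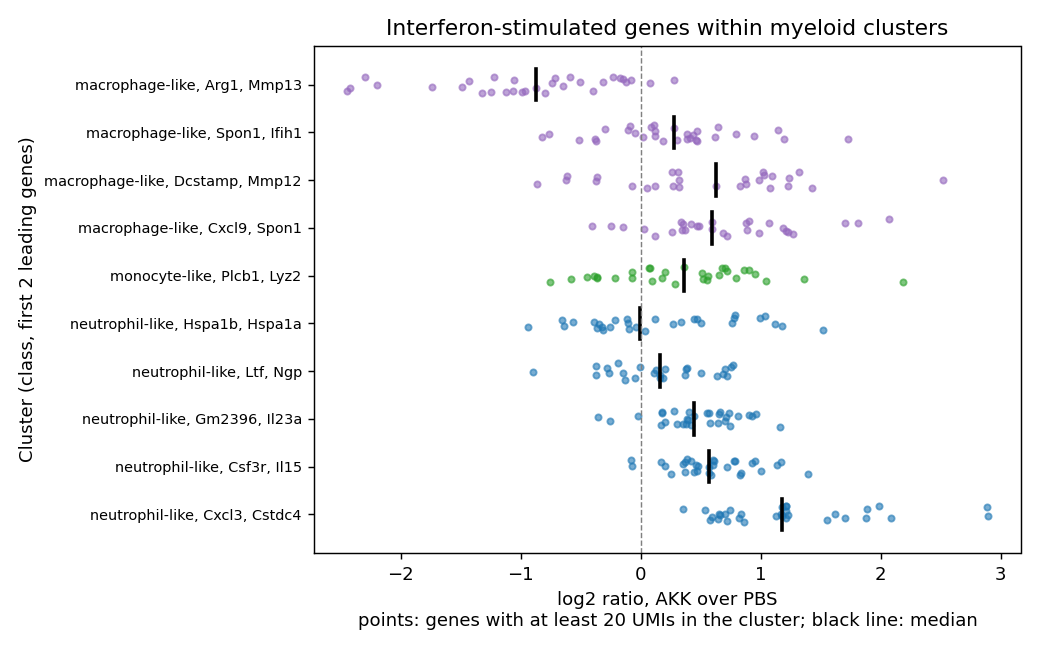
Log2 ratio of AKK over PBS (x axis) of each gene with at least 20 UMIs (points) in each neutrophil-like (blue), monocyte-like (green) and macrophage-like (purple) cluster with at least 30 cells in each library (y axis, first leading genes); the black line is the median. The Cxcl3 neutrophil-like cluster has all 31 points above 0 and a median of 1.17, and the Arg1 macrophage-like cluster has a median of -0.87 with 2 points above 0.

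In single cells the libraries differed in the same direction in neutrophil-like and monocyte-like cells. With every cell thinned to 2000 UMIs, the median number of UMIs from the 32 genes per cell was 4 in PBS and 7 in AKK neutrophil-like cells, and 7 and 11 in monocyte-like cells. It was 5 in both libraries in macrophage-like cells and 2 in both in T cell-like cells. Thinning left out 129 PBS and 208 AKK neutrophil-like cells and 30 and 28 macrophage-like cells that were shallower. The tenth of neutrophil-like cells with most UMIs of these genes held 34.8% of them in PBS and 34.4% in AKK.

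Of 18 listed type I interferon genes, only Ifnb1, which encodes interferon-beta, had at least 20 UMIs in a class. It was lower in the AKK library in macrophage-like and monocyte-like cells, the classes with at least 20 UMIs. Macrophage-like cells held 317 UMIs in 114 of 542 PBS cells and 28 UMIs in 11 of 508 AKK cells, or 32.1 and 3.84 CPM (0.120, 0.0784 to 0.177). Of the 28 AKK UMIs, 12 came from 1 cell. Monocyte-like cells held 78 and 7 UMIs, or 14.0 and 1.43 CPM (0.102, 0.0398 to 0.221). They formed 1 cluster in the main clustering. With stricter cell filters, a separate monocyte-like cluster led by Ccl2 and Cacna1d held 87 PBS and 23 AKK cells. A separate one held 88 and 13 cells with interferon genes in the clustering, and 96 and 16 without doublet removal. The part of such cells in the monocyte-like ratios was not tested. Neutrophil-like cells held 6 and 0 UMIs and pDC-like cells 0 and 1. Ifnb1 was lower in the Arg1 cluster (30.7 and 4.75 CPM; 0.155, 0.0868 to 0.257) and also in the Ifih1 cluster (63 and 1 UMIs), where the sum of the 32 genes was higher. The log2 ratio of Ifnb1 in macrophage-like cells stayed between -4.05 and -2.96 under the alternative settings run.

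**Figure D4:**
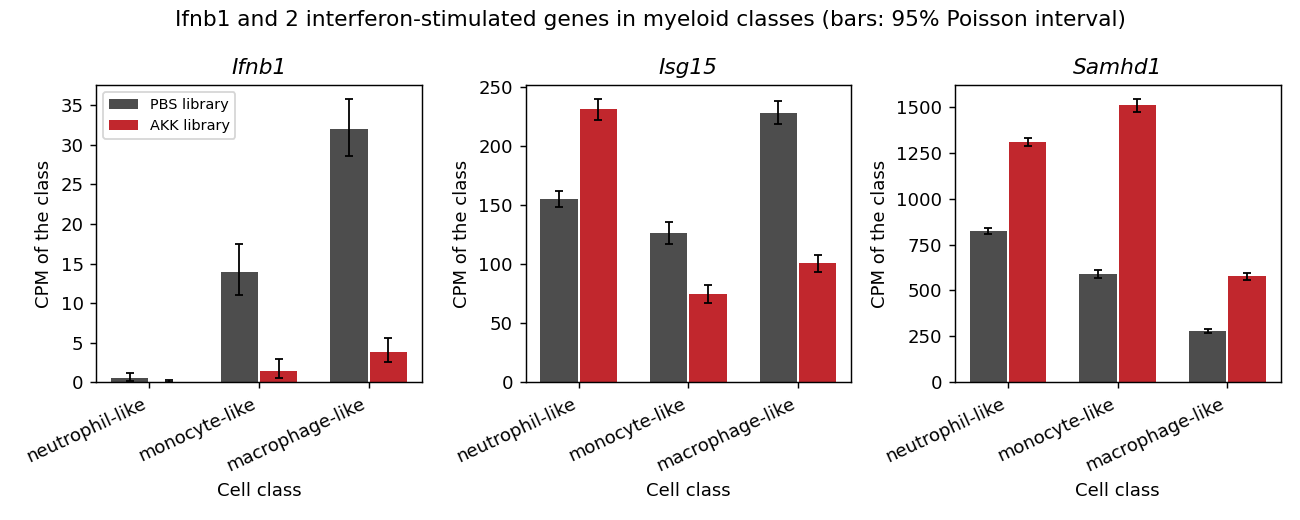
Level (y axes, CPM of the class; bars from 0, black 95% Poisson intervals) of Ifnb1, Isg15 and Samhd1 in neutrophil-like, monocyte-like and macrophage-like cells of the PBS (grey) and AKK (red) libraries. Ifnb1 is lower in AKK in the monocyte-like and macrophage-like classes, Isg15 is lower in those and higher in neutrophil-like cells, and Samhd1 is higher in all 3.

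Genes of the pathway outside the 32 are given by list. Of all genes, 10.8% were at least 1.5-fold higher and 6.84% lower in neutrophil-like cells. The shares were 14.2% and 11.7% in monocyte-like and 9.95% and 9.79% in macrophage-like cells. A count of 1 in a list this short cannot be told from these shares. The receptor genes Ifnar1 and Ifnar2 and the kinase genes Jak1 and Tyk2 were within 1.5-fold in neutrophil-like, monocyte-like and macrophage-like cells, with 0 of 4 past that fold in each. Among 6 double-stranded RNA sensors and linked genes, 3 were lower in macrophage-like cells: Ifih1, which encodes MDA5, at 777 and 200 CPM (0.258, 0.244 to 0.273), Oasl1 at 612 and 184 and the antiviral radical-SAM enzyme gene Rsad2 at 438 and 109 (0.248, 0.230 to 0.268). The same 3 were lower in monocyte-like cells, with ratios of 0.223, 0.245 and 0.365. In neutrophil-like cells Oasl1 (1.601, 1.46 to 1.75) and Rsad2 (1.67, 1.59 to 1.75) were higher.

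Of 12 interferon-gamma-induced genes, 12 were at least 1.5-fold higher in neutrophil-like cells (median log2 ratio 1.87), 9 higher and 1 lower in monocyte-like cells and 5 higher and 1 lower in macrophage-like cells. The exception in both was Gbp5, at 102 and 36.8 CPM in macrophage-like cells (0.362, 0.315 to 0.415). Of 5 negative regulators, 1 was lower in macrophage-like cells, Socs3 (342 and 182 CPM; 0.533, 0.500 to 0.568), 1 was higher in monocyte-like cells, the phosphatase gene Ptpn2 (99.4 and 154 CPM; 1.55, 1.38 to 1.73), and 0 passed the fold in neutrophil-like cells. Of 8 upstream sensing genes, 0 were higher and 1 lower in macrophage-like cells, the endosomal RNA receptor gene Tlr7 (47.1 and 23.1 CPM; 0.489, 0.408 to 0.585). In monocyte-like cells 2 of 6 measured were higher, Cgas (1.86, 1.19 to 2.97) and Tmem173 (1.69, 1.44 to 1.98), and 1 was lower, the kinase gene Tbk1 (211 and 123 CPM; 0.584, 0.529 to 0.645). In neutrophil-like cells 0 of 6 were higher and 2 lower, Tlr7 (0.588, 0.437 to 0.787) and Mavs (0.569, 0.265 to 1.17, on 23 and 13 UMIs). The type II and III interferon list had 0 of 4 past 1.5-fold in macrophage-like cells, 2 of 4 higher in monocyte-like cells and 1 higher and 1 lower of 5 in neutrophil-like cells. The shares of all genes given before these lists apply to each count, and a single gene past the fold is near them. Every comparison uses the same 2 libraries, so these lists are not independent of one another.

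RNA from other cells was bounded with marker genes that a class should lack. In monocyte-like cells S100a8 and S100a9, neutrophil genes that monocytes also express at a lower level, would allow up to 16.2% of the PBS and 6.79% of the AKK profile to come from other cells. In macrophage-like cells the bound was 3.28% and 7.17%, which amounts to 66.9 and 181 CPM of the summed 3018 and 3144. In neutrophil-like cells the C1q genes gave 6.22% and 6.705%. A gene's level was counted as clear of the bound if it was at least 2 times what the bound gives and rested on a minimum number of UMIs. Of the 32 genes, 32 PBS and 31 AKK levels in macrophage-like cells were counted. The numbers were 30 and 31 in monocyte-like, 29 and 30 in neutrophil-like and 19 and 27 in B cell-like cells. A gene left out can simply have few UMIs: Oas3 in PBS B cell-like cells had 6 UMIs, at 4.15 CPM against 0.673 from other cells. Those under 2 times the bound in neutrophil-like cells were Ifi203 and Ifi44 in both libraries and Bst2 in PBS, at 10.6 CPM against 5.65 from other cells.

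Genes with and without the ISRE core overlapped in their ratios. In neutrophil-like cells the 13 genes with an ISRE core had a median log2 ratio of 0.66 and the 11 without one 0.60. In monocyte-like cells the medians were 0.51 (13 genes, -0.76 to 2.19) and 0.28 (11 genes, -0.58 to 1.36). In macrophage-like cells the medians were -0.35 (13 genes) and -0.12 (12 genes), with ranges of -1.49 to 0.32 and -1.04 to 1.05 that overlap. The gene with the highest ratio in macrophage-like cells, Samhd1, and one of the lowest, Ifit2, both lacked the core in the windows searched. A match or its absence describes these letters only.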

How the data were processed

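Gene expression was measured in CD45+ liver tumour cells of 2 libraries, PBS and AKK, with 10x Genomics 3′ v3 chemistry, per the labels' protocols. The authors deposited raw UMI counts per gene and barcode, with no normalization. The matrices name Cell Ranger 7.1.0, per the file headers, but Cell Ranger 5.0.1 and the mm10 build stand in the submitters' processing notes; no source used here says whether intronic reads were counted. No deposited barcode had under 500 UMIs.

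Cells with at least 200 genes and under 15% mitochondrial UMIs were kept (255 PBS and 93 AKK barcodes removed). The highest Scrublet scores, 0.8% of barcodes per 1000 barcodes, were removed as doublets (187 PBS and 340 AKK). This fixed rate set the number removed. Scrublet's automatic threshold would have marked 0.0621% of PBS and 1.83% of AKK barcodes. Clustering (scanpy 1.11.5, leidenalg 0.10.2) used 2000 variable genes without the interferon genes, 30 components, 15 neighbours and resolution 1, and clusters were named from 21 marker sets. UMIs were summed per class and library and scaled to CPM; ratios have exact conditional binomial 95% intervals. Levels are given for 12 classes (30 or more cells in both libraries) and gene counts for 8 (100 or more). A gene was measured with at least 20 UMIs over both libraries, a library under 3 UMIs was set to 3 in a ratio, and the fold was 1.5. Cells are not replicates, so no test was run. The ratio calculation was tried on simulated counts drawn per gene and class. These had no clumping of UMIs in single cells and no variation between animals, so they do not test the intervals against either. By the naming rule, all 32 genes and the genes of the other pathway lists could be named; the list of other transcription factors is not reported here. The genes, lists and classes were chosen with earlier results of these data known. Promoters came from RefSeq (GRCm38.p6), coordinates from GENCODE M21 on GRCm38. Alternatives were clustering with the interferon genes, no doublet removal, stricter cell filters, equal weight per cell, scaling by the median ratio, classes from each cell's own markers, a higher UMI minimum, leaving out the most abundant gene and, added after seeing the data, leaving out the cell with most UMIs of a gene.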

Additional observations from a re-analysis of the deposited data

Results flagged for a closer look

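For 7 of the 32 genes, the ratio of AKK over PBS passed 1.5-fold in opposite directions in 2 cell classes, with and without the richest cell of each library. With 1 library per group these differences between classes were not tested. The 2 classes of each gene were picked by their ratios from all classes with gene counts. How many of all measured genes pass the fold both ways in this manner was not counted. It is therefore not known whether 7 of 32 is more than among other genes. The figure given first for each gene is the ratio in one class divided by the ratio in the other.

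For Ifit3 it was 8.14, with a ratio of 1.95 in neutrophil-like and 0.240 (0.162 to 0.346) in tumour- or epithelial-like cells. For Ifit3b it was 8.02, between 2.86 in neutrophil-like and 0.357 (0.104 to 0.988) in macrophage-like cells, the latter on 19 and 5 UMIs. Ifit1 gave 7.104, between 2.11 in neutrophil-like and 0.297 in tumour- or epithelial-like cells, where 127 of 211 PBS UMIs came from 1 cell; without the richest cells it was 4.01. Ifit2 gave 5.83, between 2.41 in neutrophil-like and 0.413 (0.252 to 0.658) in myeloid precursor-like cells. The DNA-binding protein gene Ifi204 gave 3.88, between 1.66 in neutrophil-like and 0.429 (0.264 to 0.690) in NK or ILC1-like cells. Parp14 gave 2.90, between 1.75 in neutrophil-like and 0.604 in macrophage-like cells. Slfn4 gave 4.11, between 2.04 (1.19 to 3.67) in NK or ILC1-like and 0.498 (0.389 to 0.632) in myeloid precursor-like cells. The mix of the myeloid precursor-like class differed between the libraries. Its cluster led by Adgrl4 and Ctsg held 74 PBS and 119 AKK cells, and its cluster led by Elane and Fcnb held 63 and 33. The part of this mix in the Ifit2 and Slfn4 ratios was not tested.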

How the results depend on the processing

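With 1 library per group, animal, library and treatment cannot be told apart, and low counts limit the IFIT genes outside myeloid cells. No paired analysis was possible because each group has a single library and no test was run. In neutrophil-like cells the summed ratio stayed between 1.39 and 1.48 and the count of higher genes between 15 and 17, with 0 lower, under every alternative run. Scaling by the median ratio shifted all genes by 0.10 in macrophage-like, 0.13 in monocyte-like, 0.13 in myeloid precursor-like and 0.11 in cDC2-like cells (log2). The cause of the differences below was not tested.

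In macrophage-like cells the summed ratio of 1.04 was 0.987 with interferon genes in the clustering, 0.970 with median-ratio scaling, 0.980 with each cell's own marker score, 1.10 with stricter cell filters, 1.0005 without Ifitm3 and 1.27 without doublet removal, when 97 PBS and 55 AKK macrophage-like cells fell in unnamed clusters. The 6 lower genes were 11, 10 and, without doublet removal, 3, and the 1 higher gene was 6 without doublet removal and 2 with stricter filters or cells weighted alike. The Isg15 log2 ratio there stayed between -1.45 and -0.85 and that of Ifit2 between -2.096 and -0.79.

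With stricter cell filters the monocyte-like ratio was 1.40 with 2 lower genes, and 5 genes were higher in B cell-like cells, against 4 with at least 50 UMIs. With own marker scores the ratios were 1.55 in cDC1-like, 1.29 in cDC2-like, 1.34 in monocyte-like (2 lower), 1.48 in neutrophil-like, 0.947 in plasma cell-like and 1.17 in tumour- or epithelial-like cells (1 higher), and the Isg15 log2 ratio in myeloid precursor-like cells was 0.23. With cells weighted alike they were 1.25 over all cells, 1.47 in cDC1-like, 1.47 in cDC2-like, 1.56 in monocyte-like (2 lower) and 0.945 in plasma cell-like cells; counts were 5 higher and 3 lower in B cell-like, 11 higher in myeloid precursor-like and 5 higher and 10 lower in tumour- or epithelial-like cells; and log2 ratios were -0.56 for Slfn5 in myeloid precursor-like and -0.83 for Slfn4 in tumour- or epithelial-like cells. With interferon genes in the clustering the monocyte-like ratio was 1.48.

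Without doublet removal the ratios were 1.19 over all cells, 1.19 in NK or ILC1-like, 1.06 in T cell-like (0 higher), 1.39 in monocyte-like (3 lower), 0.905 in pDC-like and 1.27 in tumour- or epithelial-like cells (7 higher, 1 lower), with 1 lower in B cell-like cells. With median-ratio scaling they were 1.16 over all cells, 1.23 in cDC2-like, 1.33 in monocyte-like (2 lower), 1.05 in myeloid precursor-like (7 lower), 1.39 in neutrophil-like and 1.08 in tumour- or epithelial-like cells (1 higher). Without the richest cell of each gene, monocyte-like cells had 2 lower genes, tumour- or epithelial-like cells 3, and the Slfn5 log2 ratio in myeloid precursor-like cells was -0.0161. Without the most abundant gene the ratios were 1.09 over all cells, 1.84 in cDC1-like, 1.49 in cDC2-like, 1.36 in myeloid precursor-like, 1.41 in neutrophil-like and 1.24 in plasma cell-like cells.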
